A study of Caenorhabditis elegans with 2 samples.

Results

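The list of PES-1 peaks that passed the irreproducible discovery rate (IDR) threshold between 2 replicates held 1452 nuclear peaks, and 262 of them form the intronic set described here. Membership was decided by position alone. The summit of each peak had to lie inside a protein-coding gene, in no protein-coding exon, outside every window from 1000 bp upstream to 200 bp downstream of a protein-coding transcript 5′ end, and more than 200 bp from any tRNA or snoRNA gene. Of the other nuclear peaks, 238 were intergenic and 276 were upstream promoter peaks, at more than 200 bp and up to 1000 bp from a coding 5′ end. These 2 classes, also away from tRNA and snoRNA genes, serve for comparison.

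The embryos came from the strain RW12239, in which a TY1, EGFP and 3xFLAG tag had been inserted into pes-1 on chromosome IV by CRISPR, at the endogenous locus. Eggs were isolated by bleaching and taken as whole organisms at 1 hour, with no sorting of cells stated. There was 1 group of 2 biological replicates, no second genotype or condition, and 1 control file for both. The sample descriptions state an anti-GFP immunoprecipitation, while the antibody field gives pes-1.

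PES-1 is a forkhead transcription factor of the winged-helix type, made in early embryonic lineages, and it acts redundantly with its relative FKH-2. Forkhead proteins bind DNA through a core of the form RYAAAYA (R a purine, Y a pyrimidine), with GTAAACA as a strong version. Introns of C. elegans can hold enhancers, and many host small noncoding RNA genes with promoters of their own. Genes for tRNAs, for the RNA of RNase P and for the RNA of the signal recognition particle are transcribed by RNA polymerase III, and tRNA genes carry internal promoter elements called the A box and the B box.

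Sequences of selected members are shown first, since later results refer back to them. Coordinates are those of ce11, the same assembly as WBcel235, and the sequence is the RefSeq copy. The first 4 windows are chrII:7001591-7001711 (plus strand) in unc-104, chrIII:11371397-11371517 (minus) in tba-7, chrIV:14838316-14838436 (minus) in Y57G11C.22 and chrIV:2657430-2657550 (minus) in Y69A2AR.31. Each covers the summit, and capitals mark a match to the B box pattern, GGTTC followed by any base, A, any 2 bases and C. These windows, of members ranked 1, 3, 10 and 14 by signal, were picked because they hold the pattern. It was found at 6 of the 20 strongest members.
unc-104: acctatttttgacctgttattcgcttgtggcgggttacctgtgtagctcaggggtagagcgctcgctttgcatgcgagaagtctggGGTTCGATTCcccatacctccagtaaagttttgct
tba-7: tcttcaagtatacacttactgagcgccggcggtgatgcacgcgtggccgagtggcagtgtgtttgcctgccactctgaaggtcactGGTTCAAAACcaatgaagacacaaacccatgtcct
Y57G11C.22: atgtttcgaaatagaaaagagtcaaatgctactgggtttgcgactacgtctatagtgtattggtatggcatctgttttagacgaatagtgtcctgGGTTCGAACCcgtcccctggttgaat
Y69A2AR.31: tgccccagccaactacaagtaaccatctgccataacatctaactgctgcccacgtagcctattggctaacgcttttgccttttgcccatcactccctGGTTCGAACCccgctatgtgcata

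The next pair shows 2 RNA genes nested in different introns, each under a strong member. They are the first 90 bases of srpr-2.2, at chrIII:5031619-5031708 (minus strand) in klp-6, and of srpr-1.2, at chrIII:4369468-4369557 (plus strand) in ckb-2. The srpr symbols stand for the RNA of the signal recognition particle. Capitals mark the 2 bases at which the genes differ, and the other 88 are alike.
srpr-2.2: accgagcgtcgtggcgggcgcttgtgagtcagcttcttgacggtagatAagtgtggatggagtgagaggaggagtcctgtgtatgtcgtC
srpr-1.2: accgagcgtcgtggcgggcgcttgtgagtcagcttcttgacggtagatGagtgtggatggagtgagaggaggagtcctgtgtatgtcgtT

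The following segments are the 45 bases before the annotated start of 4 small nuclear RNA (snRNA) genes that hold a member's summit. They are W05B2.8 at chrIII:10989634-10989678 (plus strand) in dhc-4, C28A5.7 at chrIII:4426956-4427000 (minus) in C28A5.6, F54C8.9 at chrIII:9447860-9447904 (minus) in F54C8.6, and Y9C9A.111 at chrIV:4930909-4930953 (plus) in Y9C9A.8. Capitals mark TATATA.
W05B2.8: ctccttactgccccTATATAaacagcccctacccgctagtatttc
C28A5.7: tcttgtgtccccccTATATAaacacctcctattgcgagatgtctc
F54C8.9: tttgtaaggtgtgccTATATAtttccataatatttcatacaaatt
Y9C9A.111: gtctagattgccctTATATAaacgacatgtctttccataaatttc

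The next segments show the word CTTGCGC, in capitals, at 4 members without a nearby noncoding gene. They lie at chrIII:3540583-3540613 (minus strand) in ben-1, chrX:1130822-1130852 (plus) in snx-1, chrIV:7240714-7240744 (minus) in gstk-2 and chrII:730091-730121 (minus) in rfip-2.
ben-1: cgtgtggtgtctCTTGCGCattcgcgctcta
snx-1: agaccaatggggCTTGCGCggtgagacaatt
gstk-2: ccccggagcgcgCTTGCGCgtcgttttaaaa
rfip-2: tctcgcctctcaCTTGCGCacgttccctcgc

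The last window, chrIV:1831309-1831459 (plus strand), is centred on the summit in cmk-1 and is a tandem repeat. Capitals mark the 5 copies of its most frequent 12-base word.
cmk-1: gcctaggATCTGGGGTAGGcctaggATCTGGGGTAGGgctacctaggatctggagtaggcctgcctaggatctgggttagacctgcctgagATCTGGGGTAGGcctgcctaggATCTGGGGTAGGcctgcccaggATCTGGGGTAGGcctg

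The intronic peaks were mostly weak, with a short head of strong ones. The signal used here is the value that the authors' peak caller gave each peak, and it served to rank and describe peaks within this list. Among the 262 members it ran from 7.76 to 806, with a median of 119 and quartiles of 101 and 146. The median over all 1452 nuclear peaks was 146, that of intergenic peaks was 125 and that of upstream promoter peaks was 141. Read depth was not analysed here, so all intervals below cover the counting of peaks.

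The 9 members with a signal under 50 were not isolated. Each lay 199 to 217 bp from another, stronger summit of the same list, against 15 of the 253 other members with any summit within 300 bp. The 3 weakest were in H08J19.1 (chrX:15643439-15643768, signal 7.76), in max-2, a p21-activated kinase gene (chrII:13016641-13016970, 10.7), and in ptp-3, a receptor tyrosine phosphatase gene (chrII:10990990-10991319, 10.9). For the H08J19.1 and max-2 members no ranked summit of replicate 1 lay within 200 bp, and for the ptp-3 member none of replicate 2 did. When summits within 200 bp were merged, 260 members remained.

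**Figure D1:**
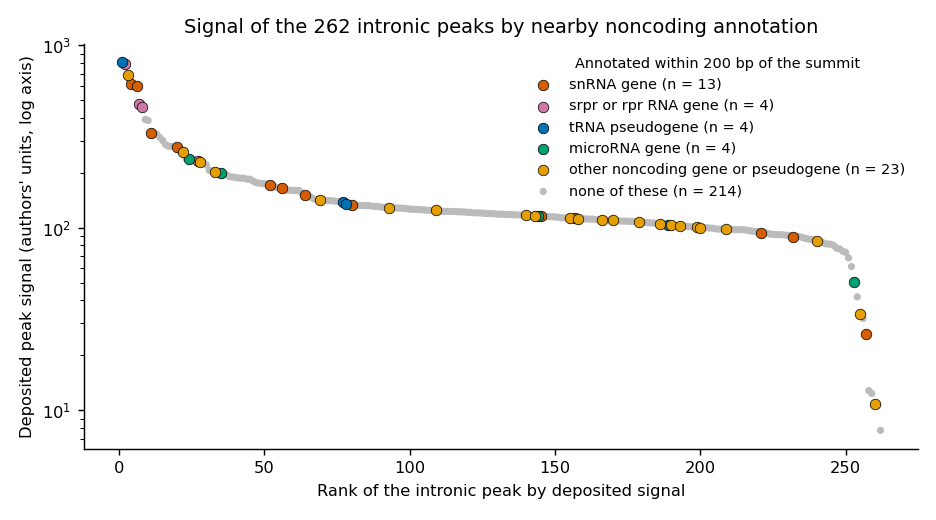
Deposited peak signal (log axis) of each of the 262 intronic peaks, from strongest to weakest, with 1 point per peak coloured by the noncoding gene annotated within 200 bp of the summit. Of the 10 strongest peaks 7 have such a gene, the middle of the list lies between the quartiles of 101 and 146, and the tail at the right falls to 7.76.

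The rule removed only tRNA and snoRNA genes, and other small noncoding RNA genes stayed in the set. A further noncoding gene or pseudogene, leaving aside piRNA genes, lay within 200 bp of the summit at 48 members (18.3%, 95% Wilson interval 14.1 to 23.5%). Such positions made up 4.21% of the 27.1 Mb of sequence where a summit would have met the rule, called eligible bases below. The summit fell inside such a gene at 35 members (13.4%, 9.76 to 18.0%), against 1.68% of eligible bases. The label of these peaks as lying away from small RNAs therefore holds for tRNA and snoRNA genes only.

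These genes were more frequent among the strong members. They stood beside 7 of the 10 strongest, 9 of the 20 strongest and 15 of the 50 strongest (interval 19.1 to 43.8%), and beside 33 of the other 212 (15.6%, 11.3 to 21.1%). Even so, the median signal of the 48 members with such a gene was 121, and that of the 214 members without one was 119. By kind, 13 members had an snRNA gene, 4 had an srpr or rpr RNA gene, 4 a tRNA pseudogene, 4 a microRNA gene and 23 another annotation. A piRNA gene lay within 200 bp of 5 members (1.91%, 0.818 to 4.39%), against 3.18% of eligible bases.

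The strongest member lay in intron 5 of unc-104, which encodes a kinesin that carries synaptic vesicle precursors. Its peak at chrII:7001493-7001767 had a signal of 806, with 389 in replicate 1 and 412 in replicate 2. The summit was base 10 of the predicted tRNA pseudogene C52E12.t1, on the strand of the host. This is the first window printed above.

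The second strongest was in intron 1 of ints-8, which encodes a subunit of the Integrator complex. The signal was 794, with 357 in replicate 1 and 419 in replicate 2. Its summit was base 23 of rpr-1, the gene for the RNA of RNase P, which runs against the host strand. The klp-6 member (chrIII:5031534-5031801), in a gene for a kinesin-like protein, had a signal of 480, with 198 in replicate 1 and 271 in replicate 2. Its summit was base 35 of srpr-2.2. The ckb-2 member (chrIII:4369372-4369611), in a choline kinase gene, had a signal of 458, with 172 in replicate 1 and 239 in replicate 2, and its summit was base 20 of srpr-1.2. A weaker ckb-2 member of signal 234 lay at base 228 of the same RNA gene, and had 52.5 in replicate 1 and 116 in replicate 2. All 4 members at srpr and rpr genes were in both replicates' own lists.

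At snRNA genes of 101 or 102 bp the summits held a regular position. Members lay within 200 bp of 12 snRNA genes, of 56 with eligible bases that near and 129 in all, although the eligible bases beside snRNA genes were 0.0731% of the total. Of these 12, 9 had a length of 101 or 102 bp and shared sequence: all 9 members held a 30-base word with 24 copies in the genome. At each of the 9 the summit was inside the gene, between bases 8 and 35 with a median at base 16. The signal at these 9 ran from 93.8 to 617 with a median of 165.

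The 3 strongest of them were among the 11 strongest members of the set. The member in dhc-4, a dynein heavy chain gene (chrIII:10989552-10990143, at W05B2.8), had a signal of 617, with 267 in replicate 1 and 352 in replicate 2. That in C28A5.6 (chrIII:4426821-4427090, at C28A5.7) had 596, with 261 in replicate 1 and 314 in replicate 2. That in mpc-1, a mitochondrial pyruvate carrier gene (chrIII:4414115-4414327, at R07E5.16), had 330, with 144 in replicate 1 and 188 in replicate 2. The gene F54C8.6 held 3 such snRNA genes in its introns, and each carried a member, with signals of 93.8, 134 and 172.

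The word TATATA stood in the 45 bases before 8 of these 9 snRNA genes, starting 30 or 31 bases ahead of the gene. Among 8 snRNA genes of the same length that had eligible bases but no member, 5 had the word there, and none had any summit of the list within 200 bp. The files and the annotation do not say which snRNA class these genes belong to. Reads from inside them could map to several copies, how such reads were mapped is not stated, and their part in the result was not tested.

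**Figure D2:**
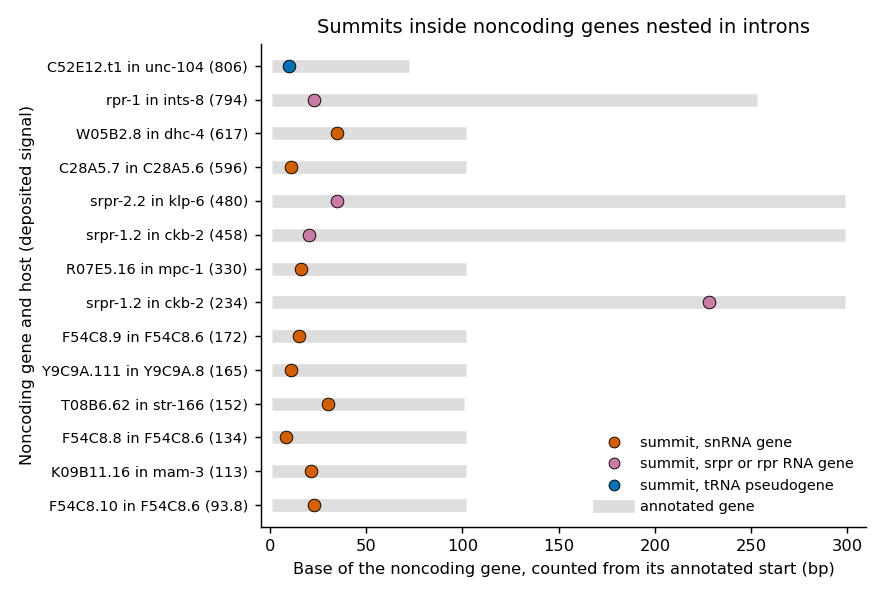
Position of the summit (points) on noncoding genes under members, namely the tRNA pseudogene in unc-104, the srpr and rpr genes and the 9 snRNA genes of 101 or 102 bp, each drawn as a grey bar from its annotated start on its own strand, with the host gene and the deposited signal at the left. Except for the weaker ckb-2 peak at base 228, every summit drawn lies between bases 8 and 35, whether the gene is 72 or 299 bp long. Genes not drawn include some of the same kinds with a summit elsewhere. These are the tRNA pseudogene C33A11.t1 (base 47) and the snRNA genes sup-6 (base 124), sls-2.14 (base 6) and sls-2.15 (base 77).

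The other snRNA members lay at longer genes. F58G1.7 held a member of signal 276 at base 124 of the 165 bp snRNA gene sup-6, and had 94.1 in replicate 1 and 183 in replicate 2. Its second member, of signal 26.2, took its replicate values from the same ranked summits. In W09D6.5 a member of signal 116 had its summit at base 6 of the spliced leader gene sls-2.14, and one of 89.6 had it at base 77 of sls-2.15, both genes being 112 bp long.

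Among microRNA genes, the member in Y62F5A.9 (chrII:11537669-11537868) had its summit at base 29 of mir-36, in the mir-35 cluster of early embryonic microRNAs. Its signal was 200.7, with 83.5 in replicate 1 and 122 in replicate 2. The member in F09A5.3 (chrX:13145166-13145255) lay upstream of mir-54 and inside the noncoding gene F09A5.11. It had a signal of 239, with 71.5 in replicate 1 and 152 in replicate 2. Beside mir-90 in K01F9.2 the signal was 116, and beside mir-1829.3 in piki-1 it was 50.3.

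Several strong members had no noncoding annotation. The largest was in intron 2 of cmk-1, a calmodulin-dependent kinase gene (chrIV:1831284-1831453), with a signal of 603, 256 in replicate 1 and 338 in replicate 2. In the window of 100 bp to each side of the summit 66.3% of 12-base words occurred more than once, as the printed repeat shows. The lmd-3 member (chrV:8431370-8431596) had 392, with 184 in replicate 1 and 207 in replicate 2. The Y57G11C.22 member (chrIV:14838270-14838486) had 387, with 186 in replicate 1 and 200.5 in replicate 2. These last members both hold the B box pattern. The member in mdt-26, a Mediator subunit gene (chrII:5661651-5662004), had 328, with 134 in replicate 1 and 207 in replicate 2. The set-24 member, in a SET domain gene (chrII:12122777-12122974), had 325, with 117 in replicate 1 and 197 in replicate 2. In all of these replicate 2 was the higher. The Y69A2AR.31 member (chrIV:2657422-2657592) had 313, with 146 in replicate 1 and 175 in replicate 2. In pad-1, a gene required for embryonic patterning, the signal was 301, with 147 in replicate 1 and 162 in replicate 2.

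The tba-7 member, in an alpha-tubulin gene (chrIII:11371337-11371598), had a signal of 686, with 311 in replicate 1 and 362 in replicate 2. Its summit was base 18 of the overlapping unclassified noncoding genes T28D6.13 and T28D6.15, which lie on opposite strands. All 15 strongest members were in both replicates' own lists.

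The B box pattern was looked for after the strongest sequences had been read, so its counts are a description. It was found within 100 bp of the summit at 22 members (8.40%, 5.61 to 12.4%), at 6 of the 20 strongest and at 13 of the 212 members below the 50 strongest (6.13%, 3.62 to 10.2%). In windows of the same length centred 500 bp away it was found at 6 members on the 5′ side of the host gene and at 5 on the 3′ side. Over 270601 windows centred on every 100th eligible base the share was 1.30%. Of the 22 members, 16 had no noncoding annotation, and lmd-3, Y57G11C.22, mdt-26 and Y69A2AR.31 were the strongest of these. An A box 25 to 75 bp before the B box on the same strand was also present at 10 members (3.82%, 2.09 to 6.88%), against 0.238% of eligible windows.

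Less of the intronic set than of all peaks was in the replicates' own thresholded lists. Within 200 bp of the summit, replicate 1's list had a summit for 92 members (35.1%, 29.6 to 41.1%), against 57.4% of all nuclear peaks. Replicate 2's list had one for 120 members (45.8%, 39.9 to 51.9%), against 62.2% of all. Both lists had one for 67 members (25.6%, 20.7 to 31.2%), against 46.4% of all, and 117 members (44.7%, 38.8 to 50.7%) were in neither. Another 25 were in the list of replicate 1 only and 53 in that of replicate 2 only.

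Presence in the own lists followed the signal closely. Of the 66 strongest members, with signals from 147 to 806, 52 were in both lists. Of the next 65 there were 11, of the following 66 there were 3, and of the 65 weakest there was 1. The same order held for the width of the peak. Exactly 330 bp wide were 215 members (82.1%, 77.0 to 86.2%), against 61.0% of all nuclear peaks. In the comparison classes the share was 75.6% of intergenic and 66.3% of upstream promoter peaks. The 215 members of that width had a median signal of 113 and 26 were in both lists. The 47 members of another width had a median of 239 and 41 were in both.

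Signal per replicate was that of the closest summit, at most 200 bp away, among the ranked peaks of the replicate. Of the 262 members, 254 had one in both replicates, 4 had none in replicate 1 and 4 had none in replicate 2. In 4 pairs of neighbouring members both took their values from the same ranked summits. The signal ran from 39.6 to 389 with a median of 53.6 in replicate 1, and from 48.1 to 419 with a median of 69.8 in replicate 2. Replicate 2 was higher at 215 of the 254 members (84.6%), with a median log2 ratio of replicate 2 over replicate 1 of 0.38 (SD 0.38 over members), against 0.32 (SD 0.40) over 1407 nuclear peaks. No scaling between the replicates is stated, so this difference cannot be told apart from one of scale.

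Across the 254 members the replicates' signals had a Spearman's rho of 0.446 and, in log2, a Pearson's r of 0.79. These are descriptions across peaks of the same 2 libraries that were chosen for agreement between them, and neither is a test. The ratio ran from -0.90 to 1.61. The widest gap toward replicate 2 was in let-268, a lysyl hydroxylase gene, with 70.5 in replicate 1 and 215 in replicate 2. One that went the other way was in tir-1, the SARM homologue, with 196 in replicate 1 and 110 in replicate 2.

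**Figure D3:**
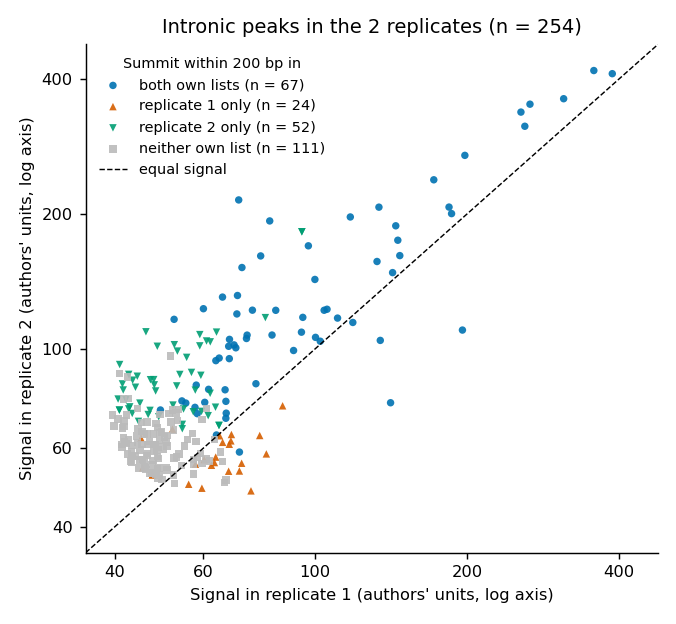
Signal in replicate 1 and replicate 2 (both log axes) of the 254 intronic peaks found in both ranked lists, 1 point per peak, by presence in the replicates' own thresholded lists. Most points lie above the dashed line of equal signal, and the grey points of the peaks in neither own list crowd the weak corner.

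Intronic peaks were found less often than upstream promoter peaks in each replicate's own list, and less often than intergenic peaks in that of replicate 1. The comparison covered 20 properties against each of the 2 classes by two-sided Fisher's exact test with Benjamini-Hochberg adjustment over all 40, and 5 passed an adjusted p of 0.05 (12.5%). It treats peaks as independent, and describes these peaks rather than a difference between samples. Replicate 1's list held 35.1% of intronic peaks, against 48.7% of intergenic peaks (42.5 to 55.1%, adjusted p = 0.0214 by Fisher's exact test) and 55.1% of upstream promoter peaks (49.2 to 60.8%, adjusted p = 8.27e-05). Replicate 2's list held 45.8% of intronic and 60.5% of upstream promoter peaks (adjusted p = 0.00740 by Fisher's exact test), and both lists held 25.6% and 41.7% of them in the same order (adjusted p = 0.00116). The signal was above the median of all nuclear peaks at 25.2% of intronic and 44.6% of upstream promoter peaks (adjusted p = 8.27e-05 by Fisher's exact test). Against intergenic peaks the other 3 of these shares did not pass. Replicate 2's list held 45.8% of intronic and 49.6% of intergenic peaks (adjusted p = 0.859 by Fisher's exact test), and both lists held 25.6% of intronic and 32.4% of intergenic peaks (adjusted p = 0.378). The signal was above the median at 25.2% of intronic and 35.3% of intergenic peaks (adjusted p = 0.0984 by Fisher's exact test).

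With peaks of exactly 330 bp left out of all 3 classes, an alternative added after the data were seen, no property passed. That alternative takes out the weak peaks, as the signals by width above show, and leaves 47 members of which 87.2% were in both lists, so it does not test whether the differences depend on width. No property passed either on replicate 1's list alone (131 intronic peaks) or on replicate 2's (174). Presence in the list used, or in both lists, was not compared there, so not every call was looked at again. Another noncoding gene lay near 18.3% of intronic, 25.6% of intergenic and 18.1% of upstream promoter peaks, and neither difference passed (adjusted p = 0.205 and 1 by Fisher's exact test).

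**Figure D4:**
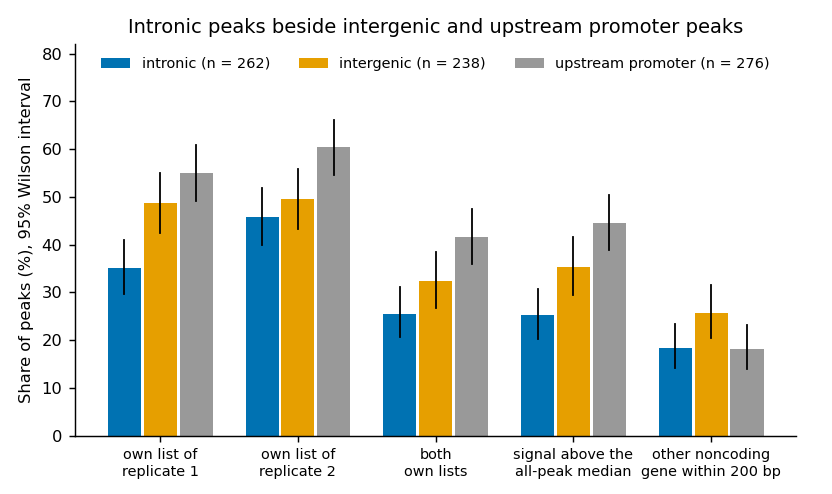
Share of intronic, intergenic and upstream promoter peaks (bars, with 95% Wilson intervals as lines) that lie within 200 bp of a summit in the replicates' own lists, exceed the median signal of all nuclear peaks, or have another noncoding gene within 200 bp. The intronic bar is lowest in the first 4 groups, at 25.6% against 32.4% and 41.7% for both lists.

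Intronic summits were G and C rich islands. The 101 bp window around the summit held 48.3% G and C on average (SD 9.71, n = 262), against 37.5% (SD 9.60) in the window 500 bp toward the 5′ end of the host, 36.7% in that toward the 3′ end and 31.9% over eligible bases. The summit window was the richer one at 207 members (79.0%, 73.7 to 83.5%) against the 5′ flank and at 214 (81.7%, 76.5 to 85.9%) against the 3′ flank. Members with a noncoding gene nearby averaged 49.2% (SD 9.71, n = 48) and those without one 48.1% (SD 9.72, n = 214). In the central 50 bp the means were 49.6% for intronic, 48.0% for intergenic and 51.9% for upstream promoter peaks.

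**Figure D5:**
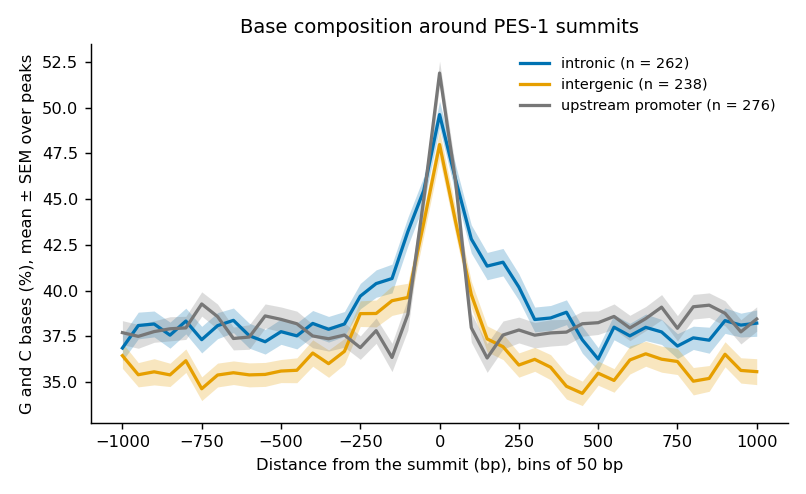
Mean share of G and C bases in bins of 50 bp around the summit for intronic, intergenic and upstream promoter peaks, with the standard error over peaks shaded, intronic peaks being drawn in the direction of the host gene. All 3 classes peak at the summit, at 49.6%, 48.0% and 51.9%, and fall away on both sides.

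Of 15 motifs looked for on either strand, in windows reaching 50 bp to each side of the summit, 3 differed from the flank 500 bp toward the 5′ end of the host (20%; two-sided exact McNemar test, Benjamini-Hochberg over 15, threshold 0.05). The word CTTGCGC was the one found more often, at 13 members (4.96%) against 1 flank (adjusted p = 0.00916 by the exact test), and in 0.325% of eligible windows of 101 bp. It was at 5 of the snRNA members and at 8 members with no noncoding gene, of which 4 are printed above. In this count each window holds the word on either strand. Those 5 snRNA members share sequence with one another, while the test treats windows as independent. The 15 motifs were chosen with earlier results of these data known, so the p-values of these motif tests describe these peaks only. CTTGCGC was also at 2.94% of intergenic and 6.88% of upstream promoter peaks. Neither share differed from that of intronic peaks (adjusted p = 0.712 and 0.859 by Fisher's exact test). With the members near noncoding genes left out the counts were 8 and 0 (adjusted p = 0.0390 by the exact test). The call was lost on each replicate's own list (5 against 1 without replicate 1, 4 against 0 without replicate 2), at a −log10 global IDR of at least 3, within 25 bp, with 5′ ends of all biotypes and without peaks 330 bp wide. Over the 14 alternatives its adjusted p ran from 0.00259 to 1.

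The strongest members with the word CTTGCGC were the snRNA ones in dhc-4 and mpc-1. The next was in ben-1, a beta-tubulin gene (chrIII:3540455-3540784), with a signal of 195, 82.1 in replicate 1 and 107 in replicate 2. The others without a noncoding gene ran from 93.5 in ceeh-1 to 140 in snx-1, a sorting nexin gene.

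The other 2 motifs that passed were rarer at summits. The GATA-type word HGATAR (H is A, C or T) was at 24 summits and 55 flanks (adjusted p = 0.00183 by the exact McNemar test), and TTTCAG, the consensus of worm 3′ splice sites, at 18 summits and 61 flanks (adjusted p = 4.00e-06). In eligible windows HGATAR was found in 22.9% and TTTCAG in 23.9%. At intergenic peaks the shares were 10.9% and 9.66%, and at upstream promoter peaks 12.3% for each word. None of these differed from the intronic share by Fisher's exact test after adjustment. Summit windows also held more G and C than flanks and lay farther from splice sites than eligible bases, as given above and below, and flanks could lie in exons. The part of these features in the 2 motif differences, and of base composition in that of CTTGCGC, was not tested. The HGATAR call was lost without replicate 2 (18 against 31), with 2000 bp promoters and with 5′ ends of all biotypes, and the TTTCAG call within 25 bp. Both were lost at a −log10 global IDR of at least 3 and without peaks 330 bp wide.

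The forkhead core itself was not more frequent at intronic summits. RYAAAYA was at 26 summits (9.92%) and 44 flanks (16.8%, adjusted p = 0.0834 by the exact McNemar test), against 16.8% of eligible windows. Set against 3′ flanks (26 and 49, adjusted p = 0.0258) or with 500 bp promoters (27 and 49, adjusted p = 0.0268) the lower count at summits passed the exact test, and over the alternatives no setting gave a call for a higher count. RYAAAYA was also at 7.98% of intergenic and 10.9% of upstream promoter peaks. Neither share differed from the intronic one (adjusted p = 0.920 and 0.973 by Fisher's exact test). Summit windows held more G and C than flanks, and the part of that in the lower count was not tested. GTAAACA was at 1 summit and 5 flanks (adjusted p = 0.410 by the exact test). The single holder was a member in intron 1 of lsy-22, a Groucho family gene, with a signal of 130, 54.4 in replicate 1 and 76.5 in replicate 2. The palindrome TTGCGCAA was at no summit and no flank. The tRNA word GGTTCGA was at 4 summits, among them unc-104, and 5 flanks. GAGAGA, the GAGA-type word, was at 25 summits and 15 flanks (adjusted p = 0.376 by the exact test), and passed against 3′ flanks alone (25 and 10, adjusted p = 0.0400). GAGAGA was at 9.54% of intronic, 15.5% of intergenic and 15.2% of upstream promoter peaks, and in 3.97% of eligible windows. For GGTTCGA the shares were 1.53%, 5.04%, 1.81% and 0.629% in the same order. None of these class differences passed Fisher's exact test after adjustment.

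Repeated sequence was common at intronic summits. Within 100 bp of the summit an inverted repeat of at least 12 bp was present at 76 members (29.0%, 23.8 to 34.8%), against 39 of their 5′ flanks (14.9%), 44 of their 3′ flanks (16.8%), 36 of 238 intergenic peaks (15.1%) and 40 of 276 upstream promoter peaks (14.5%). By signal, the inverted repeat was at 12 of the 66 strongest members and 24 of the next 65. It was at 16 of the following 66 and 24 of the 65 weakest. Over 20% of 12-base words recurred inside the window at 41 members, against 13 of the 5′ flanks and 12 of the 3′ flanks. A 30-base word with another copy in the genome was present at 138 members (52.7%, 46.6 to 58.6%), 55.9% of intergenic and 34.1% of upstream promoter peaks. These shares were not tested.

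Some members were copies of each other. A 30-base word was shared by 53 members in 18 families, the largest being the 9 snRNA members. A family of 4 held both strong tir-1 members (signals of 228 and 128), one in unc-82, a kinase gene (134), and one in cua-1, a copper transporter gene (117), and its word had 415 copies in the genome. The set-24 member shared a word of 18 copies with T24H10.5 (signal 240) and ptr-17 (177). Copies differed in signal within a family, and the 9 snRNA members alone spanned 93.8 to 617. The part of read mapping in these values was not tested.

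The share of first introns was close to that of the sequence, and few members were near a splice site. They lay in a first intron at 83 sites (31.7%, 26.3 to 37.5%), against 28.8% of eligible bases. The median length of the intron was 1173 bp, against 920 bp over eligible bases. The nearest splice site was a median of 295.5 bp away, against 202 bp, and within 100 bp of one were 26 members (9.92%, 6.86 to 14.1%), against 32.6% of eligible bases. Divided in equal parts, the 5′ part of the intron held 79 members, the middle part 110 and the 3′ part 73. With promoters taken as 2000 bp upstream to 500 bp downstream, 23.3% were in a first intron.

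The distance to the nearest coding 5′ end was 242 to 15087 bp, with a median of 1787 bp, and 27 members lay more than 5000 bp away. The 5 farthest were 3 in ppfr-1, a gene for a regulatory subunit of protein phosphatase 4 (15087, 14145 and 14057 bp), 1 in sos-1, a Ras exchange factor gene (13226 bp), and 1 in vab-10, a spectraplakin gene (10167 bp). Their signals were 117, 124 and 91.2 in ppfr-1, 121 in sos-1 and 84.6 in vab-10, beside a median of 119 over all members. None of the 5 was in both replicates' own lists. Of the 3 in ppfr-1, 2 lay inside the long noncoding gene F16A11.5, which runs against the host.

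Chromosome III held 72 members, 16.2 per Mb of eligible sequence, and 27.5% of the set (22.4 to 33.2%) against 16.4% of eligible bases. The X chromosome held 24, 5.28 per Mb, and 9.16% (6.23 to 13.3%) against 16.8%. The other autosomes ranged from 6.70 per Mb on V to 10.9 on II. Median signals by chromosome lay between 112 on X and 122 on IV.

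The 262 members lay in 213 host genes, 1.23% of the 17308 protein-coding genes with eligible bases. Host genes had more room, with a median of 4.43 kb of eligible sequence against 0.688 kb over all such genes. More than 1 member was found in 35 hosts, which together held 84 members. The most were 5 in ppfr-1 and 5 in pqn-41, then 4 in lsy-22. Another 6 hosts had 3 each, namely F54C8.6, Y62F5A.9, Y69A2AR.31, herc-1, tir-1 and zipt-15.

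The members in these hosts were mostly of middling signal. Those in ppfr-1 spread over 12086 bp with signals from 74.4 to 141, and none was in both replicates' own lists. All 5 in pqn-41, a gene for a protein with a polyglutamine tract, were in first introns with signals from 41.8 to 181. The 4 in lsy-22 stood within 2177 bp of one another in its long first intron, with signals of 174, 139, 130 and 126, and 3 of them were in both lists. The strongest of these had 69.6 in replicate 1 and 100.5 in replicate 2.

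Several gene lists were looked at for genes that held a member. The lists were taken by symbol, and their counts stand beside the 1.23% of all coding genes with eligible bases. At that share a short list can hold no host. The share is per gene, while the lists differ in room, from 0.34 kb of eligible sequence for histones to 546 kb for unc genes. Counts were not adjusted for this. Of 15 forkhead genes none did. The gene pes-1 itself had 635 eligible bases and no member, the nearest being 71.8 kb away in Y9C9A.8, and fkh-2 had 56 eligible bases, with the nearest member 743 kb away. Of 78 homeobox genes 1 did, ceh-21, with a signal of 109 (47.0 in replicate 1 and 72.8 in replicate 2). Of 264 nuclear receptor genes 3 did, and the strongest were nhr-91 (110) and nhr-79 (101). None of 25 hlh genes did.

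Among 47 ztf, zim and tbx genes 2 were hosts, ztf-6 with members of 144 and 123, and ztf-20 with 128. Of 20 Notch and Wnt pathway genes 3 were hosts. These were lit-1, the Nemo-like kinase (signals of 105 and 33.6), lin-17, a Frizzled receptor (105), and pop-1, the TCF transcription factor (87.5). All 4 of their peaks were in neither replicate's own list. For lit-1 the stronger peak had 40.9 in replicate 1 and 88.2 in replicate 2, the lin-17 peak had 42.6 in replicate 1 and 62.7 in replicate 2, and the pop-1 peak had 43.3 in replicate 1 and 60.7 in replicate 2. The Notch coactivator gene sel-8, which is not on the list and was picked after its values were seen, had members of 147 and 112 in its first intron.

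Of 28 polarity and cell cycle genes 1 was a host, the cyclin D gene cyd-1 (signal 111, 40.6 in replicate 1 and 77.2 in replicate 2). Of 93 unc genes 3 were, unc-104 with the strongest member of all, unc-84, which encodes a SUN domain protein of the nuclear envelope (165), and unc-82 (134). Of 59 chromatin genes 2 were, set-24 (325) and hda-10 (133). No member lay in 57 ion channel, 30 ribosomal protein, 3 histone, 109 collagen or 23 splicing genes with eligible bases. The ribosomal and histone lists had 3.45 and 0.340 kb of eligible sequence.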

How the data were processed

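Chromatin immunoprecipitation and sequencing of tagged PES-1 was done in 2 replicates, with sonicated chromatin per the labels' protocols. The authors deposited peak lists on ce11, per the deposited file lists, with a signal per peak from their peak caller and, in the ranked lists, the −log10 of the global IDR. Peaks of the conservative list, thresholded between the replicates, were used, and the ranked list behind it gave the lowest −log10 of the global IDR among them as 2.00, that is an IDR of 0.01, at a lowest score of 830. For aligner, peak caller and versions, the names were not given in the sources used here, and depth was not analysed. The other 8 unnamed columns of each ranked list were not used.

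Genes came from Ensembl release 115 (WBcel235), and host introns from all transcripts of protein-coding genes. A member's signal in a replicate is that of the closest summit, up to 200 bp away, among the replicate's ranked peaks. Tests were exact McNemar tests of summit against flank windows and Fisher's exact tests between peak classes, two-sided, with Benjamini-Hochberg adjustment, in Python 3.11.15 with scipy 1.17.1, numpy 2.4.6, pandas 2.3.3 and matplotlib 3.10.9. They treat peaks as independent and were tested on simulated data, which were drawn as independent too. Members that share sequence or a host, and words as rare as CTTGCGC, were not simulated. Intervals are 95% Wilson intervals over peaks and cover counting error only. Alternatives changed the list, IDR threshold, promoter window, tRNA and snoRNA distance, merging, matching, flank side, motif window and replicate.

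Named in the text by rule are the 15 strongest and 3 weakest members, members with GTAAACA or TTGCGCAA, the hosts with the most members, up to 2 strongest members per gene list, the 5 members farthest from a coding 5′ end, pes-1 and fkh-2. All others, among them members at noncoding genes, with CTTGCGC or a B box, in sequence families or at the ends of the replicate ratio, were chosen after their values were seen. The members, motifs and gene lists were chosen with earlier results of these data known.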

Additional observations from a re-analysis of the deposited data

Results flagged for a closer look

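The ranked list behind the conservative one held 101 nuclear peaks at the IDR threshold that are absent from the thresholded list, and 7 of them met the intronic rule. Of these, 2 were in usp-39 (signals of 407 and 276), 3 in Y18H1A.14 (365, 335 and 218), 1 in str-222 (331) and 1 in srt-50 (174). Their summit windows held 26.7 to 32.7% G and C, against a mean of 48.3% in the 262 members, and none had a noncoding gene within 200 bp. Why they are absent was not tested.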

How the results depend on the processing

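No pairing of samples between groups was possible because the study has 1 group. On the list of a single replicate, members numbered 131 to 174, host genes 117 to 141, motif calls 1 to 2 and class calls 0. At a −log10 global IDR of at least 3 there were 52 members in 48 genes, 0 motif calls and 0 class calls, and the share in replicate 1's list turned to 92.3% of intronic and 90.8% of intergenic peaks (adjusted p = 1 by Fisher's exact test). Without peaks 330 bp wide, an alternative added after the data were seen, 47 members in 43 genes remained, 41 in both lists, with 0 motif calls and 0 class calls, but this leaves mainly strong peaks and is no test of width. Against upstream promoter peaks 4 differences then turned, all with an adjusted p of 1: replicate 1's list held 89.4% of intronic and 89.2% of upstream promoter peaks, replicate 2's 95.7% and 94.6%, both lists 87.2% and 86%, and 91.5% and 90.3% had a signal above the median. Counting 5′ ends of all biotypes gave 1 motif call and 11 class calls, the optimal list 9 class calls, 3′ flanks 5 motif calls and a 25 bp window 1. Promoters of 2000 bp left 23.3% in first introns. Leaving out members near noncoding genes, also added after the data were seen, gave 3 motif calls and 7 class calls. A replicate's list cannot be compared for presence in itself, so that value was not computed. Read depth was not analysed, 2 replicates give no spread for a single peak, and 138 members hold a 30-base word found elsewhere in the genome, whose part was not tested.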
